A study of Mus musculus with 4 samples.

Results

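The tricarboxylic acid cycle genes described here are Cs, Idh3a, Idh3b, Idh3g, Ogdh, Suclg1, Suclg2, Fh1 and Mdh2, chosen by gene symbol from the read count table. All 9 of the 9 symbols were found among 24527, and all 9 belonged to the 12728 genes with a mean over the libraries of at least 1 CPM, which are called the genes tested below. B16F10 is a mouse melanoma cell line, labelled wild type in this series. Its RNA was sequenced from spheroids grown with NIH/3T3 mouse fibroblasts, from 2D co-culture with the same fibroblasts, from 2D monoculture, and from a tumor that the cells formed under the skin of female C57BL/6 mice aged 1 year. Per the study's methods, B16F10 cells of a line carrying green fluorescent protein were sorted out of the cultures. In their passage on RNA isolation, only the tumor cells are named as sorted, and the labels give wild type cells. The sort of the culture libraries is therefore uncertain. For the tumor, the library name reads as snap-frozen tissue, so the sort of that library is uncertain too. The age of the spheroids at RNA isolation and the number of animals behind the tumor library are not stated in the sources used here. The study's methods name replicate RNA isolations, and whether these were pooled for sequencing is not stated. Each condition had 1 library. Differences between conditions could therefore not be set against a spread between replicates, and no test was made.

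The tricarboxylic acid cycle runs in the mitochondrial matrix, where it oxidizes the acetyl group of acetyl-CoA to carbon dioxide and passes the electrons to NADH and succinate dehydrogenase for oxidative phosphorylation. Its intermediates also leave the cycle as building blocks, such as citrate for lipid synthesis and oxaloacetate for aspartate. Melanoma cells are known to run the cycle alongside strong glycolysis, with glutamine as a second source of carbon. The genes are described in the order of the reactions: citrate synthase, NAD-dependent isocitrate dehydrogenase, the oxoglutarate dehydrogenase complex, succinate-CoA ligase, fumarase and malate dehydrogenase.

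The region before the start of the gene is shown for Cs, Ogdh and Fh1, the 3 genes with the widest range over the libraries. These are the 250 bases upstream of the start in RefSeq (GRCm38.p6), written 5′ to 3′ along the strand of the gene. Capitals mark matches on either strand to 7 short motifs that were searched: GCATGCGC (NRF1), CCGGAAG (ETS factors such as GABPA), AAGGTCA (estrogen-related receptors), AAGATGGC (YY1), TGACGTCA (the cAMP response element, CRE), ACGTG (HIF) and GGGCGG (SP1).
Cs, chr10:128337477-128337726, plus strand: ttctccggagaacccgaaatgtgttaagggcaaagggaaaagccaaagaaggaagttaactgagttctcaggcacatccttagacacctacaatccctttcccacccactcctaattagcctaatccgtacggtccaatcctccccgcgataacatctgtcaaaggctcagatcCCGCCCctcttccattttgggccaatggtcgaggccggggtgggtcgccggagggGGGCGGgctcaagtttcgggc
Ogdh, first of 6 listed starts, chr11:6291347-6291596, plus strand: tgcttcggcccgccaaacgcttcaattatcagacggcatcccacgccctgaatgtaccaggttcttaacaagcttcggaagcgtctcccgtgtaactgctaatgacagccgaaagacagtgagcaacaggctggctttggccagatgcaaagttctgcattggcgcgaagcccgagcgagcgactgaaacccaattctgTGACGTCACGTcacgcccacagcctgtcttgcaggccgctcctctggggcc
Fh1, chr1:175625636-175625885, minus strand: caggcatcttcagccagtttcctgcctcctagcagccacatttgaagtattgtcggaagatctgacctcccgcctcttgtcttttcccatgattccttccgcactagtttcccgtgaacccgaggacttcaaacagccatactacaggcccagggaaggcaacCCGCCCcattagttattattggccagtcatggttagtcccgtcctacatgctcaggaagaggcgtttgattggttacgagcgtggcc
The Cs sequence held the SP1 letters at 2 places and the Fh1 sequence at 1 place. The Ogdh sequence held the CRE letters, and a match to the HIF letters that shares bases with them. The CRE letters were also present before the start of Mdh2, and in 1.55% of all 32851 promoter windows of this length. The SP1 letters were in 32.7% of all windows and the HIF letters in 16.6%. Idh3g held the ETS letters (6.91% of all windows), the YY1 letters (1.56%) and the HIF letters, and 2 of the 6 windows of Ogdh held the NRF1 letters (2.26%). No window of Idh3b or Suclg1 held any of the 7 motifs, Suclg2 held the SP1 letters 5 times, and none of the genes with a window held the letters for estrogen-related receptors (4.08%). Of the 9 genes, 8 had a window in the table; Idh3a was not in it. A match describes the letters only.

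The libraries held between 118896900 and 150028663 counted reads, and values are CPM, read counts brought to a common library total with TMM factors, which correct for the makeup of each library. TMM factors lay between 0.908 (spheroid) and 1.16 (tumor). The 9 genes took 0.196% of the reads of the spheroid, 0.244% of the 2D co-culture, 0.262% of the 2D monoculture and 0.188% of the tumor. Each gene had between 5817 and 90983 reads in a library, so that the 95% Clopper-Pearson interval of a level reached from 0.650% to 2.58% to either side of it. These intervals, and those of the log2 ratios, cover counting error only.

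The levels of 5 of the 9 genes differed by more than 2-fold between the highest and the lowest library, namely Fh1 (3.97-fold), Ogdh (3.55-fold), Cs (3.37-fold), Mdh2 (2.17-fold) and Idh3a (2.05-fold). The other 4 stayed within 2-fold, from 1.08-fold for Idh3b to 1.67-fold for Suclg2. For all genes tested, the range from the highest to the lowest library was not counted. Between spheroid and tumor alone, 28.4% of them were over 2-fold higher and 29.2% lower, so the count of 5 of 9 does not set these genes apart. No common order of the libraries was seen: 4 genes were highest in the 2D monoculture, 3 in 2D co-culture, 1 in spheroids and 1 in the tumor, while 5 were lowest in the spheroid, 3 in the tumor and 1 in 2D monoculture. In 5 genes (Idh3a, Idh3b, Ogdh, Fh1 and Mdh2) the 2D co-culture lay between the higher 2D monoculture and the lower spheroid, which held for 4 of them with DESeq2 size factors (not Mdh2) and for 3 with upper quartile factors (not Mdh2 and Idh3b). The summed level of the 9 genes was 2156.5 CPM in spheroids, 2535 CPM in 2D co-culture, 2663 CPM in 2D monoculture and 1614 CPM in the tumor.

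**Figure D1:**
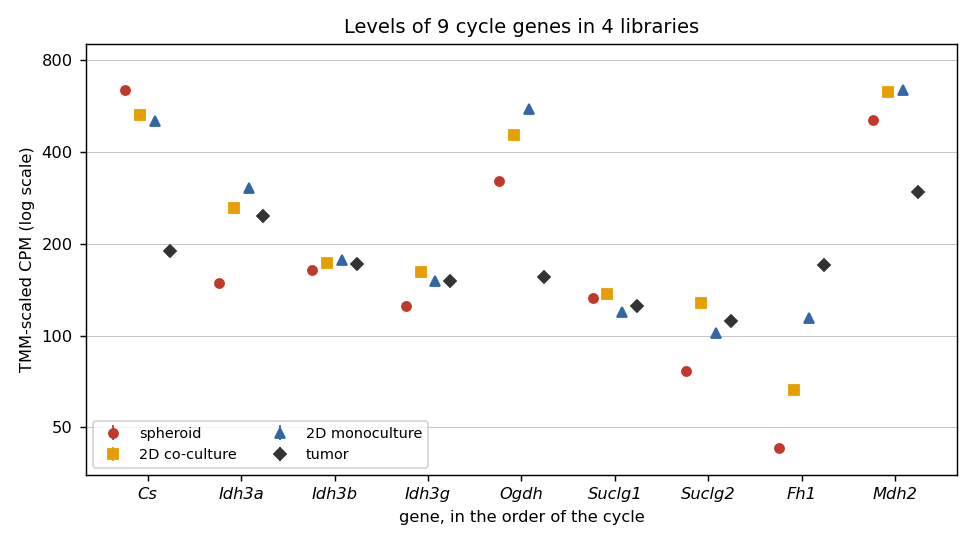
Level of each of the 9 genes in TMM-scaled CPM (y axis, log scale) in the spheroid, 2D co-culture, 2D monoculture and tumor libraries (1 library each); bars are 95% counting intervals and are mostly smaller than the symbols. Cs, Ogdh and Mdh2 were lowest in the tumor, Fh1 was highest there, and Idh3b and Suclg1 lay close together in all 4 libraries.

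Cs (chr10:128337734-128362479, plus strand) encodes citrate synthase, which joins acetyl-CoA to oxaloacetate and so opens the cycle. Its level was 638 CPM in spheroids, 526 CPM in 2D co-culture, 506 CPM in 2D monoculture and 189 CPM in the tumor. The cultures lay within 1.26-fold of each other with the spheroid on top, and the tumor stood far below them. For spheroid over tumor the log2 ratio was 1.75 (interval 1.74 to 1.77), higher than for 86.8% of the genes tested, and that of tumor to 2D monoculture was -1.42 (interval -1.44 to -1.40). The ratio of spheroid to 2D monoculture was small, 0.33 (interval 0.32 to 0.35), and Cs and Suclg1 were the only genes of the 9 above 0 there.

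Idh3a, Idh3b and Idh3g encode the alpha, beta and gamma subunits of the NAD-dependent isocitrate dehydrogenase, an enzyme built of 1 kind of catalytic chain (alpha) with both others. Idh3a (chr9:54586334-54604661, plus strand) had 149 CPM in spheroids, 262 CPM in 2D co-culture, 304 CPM in 2D monoculture and 247 CPM in the tumor. The spheroid was the low library, with a log2 ratio to 2D monoculture of -1.03 (interval -1.06 to -1.01) and to the 2D co-culture of -0.82 (interval -0.84 to -0.79). The distance from the 2-fold line was small, and the ratio to 2D monoculture was -0.997 with DESeq2 size factors and -0.91 with upper quartile factors. Idh3b (chr2:130279309-130284547, minus strand) had 164 CPM in spheroids, 173 CPM in 2D co-culture, 177 CPM in 2D monoculture and 172 CPM in the tumor, the narrowest range of the 9 genes. The counting intervals of the 2D monoculture and the 2D co-culture overlapped, as did those of the 2D co-culture and the tumor. Idh3g (chrX:73778963-73786897, minus strand) had 125 CPM in spheroids, 161 CPM in 2D co-culture, 150.3 CPM in 2D monoculture and 150.3 CPM in the tumor, with the spheroid lowest again and no difference between 2D monoculture and tumor beyond counting error.

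The ratio of 2 subunits inside 1 library does not depend on the scaling between libraries. Per kilobase of exon, the ratio of Idh3b to Idh3a reads was 1.76 in spheroids (interval 1.73 to 1.80), 1.05 in 2D co-culture, 0.927 in 2D monoculture and 1.11 in the tumor. The ratio of Idh3g to Idh3a was 1.63 in spheroids (interval 1.60 to 1.66), 1.19 in 2D co-culture, 0.957 in 2D monoculture and 1.18 in the tumor. The spheroid thus had fewer reads of the catalytic chain relative to both other chains than any other library. Between the beta and gamma chains the ratio of Idh3g to Idh3b was close to even, from 0.924 in spheroids to 1.14 in 2D co-culture. The GC content of the longest transcript was 46.9% for Idh3a, 52.1% for Idh3b and 52.0% for Idh3g, so these ratios were also compared after the correction for GC content and length described below. Before it, the log2 difference of Idh3b from Idh3a in the spheroid relative to 2D monoculture was 0.93, and after it 0.30. For Idh3g and Idh3a the same difference went from 0.77 to 0.05, and relative to the tumor from 0.47 to -0.03. Most of the distance of the spheroid from the other libraries was thus no longer seen after the correction.

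Ogdh (chr11:6291633-6356642, plus strand) encodes the first enzyme, E1, of the oxoglutarate dehydrogenase complex, which converts 2-oxoglutarate to succinyl-CoA and is a point where glutamine carbon flows on. It had 321 CPM in spheroids, 454 CPM in 2D co-culture, 551 CPM in 2D monoculture and 155 CPM in the tumor, and no counting intervals overlapped. Against 2D monoculture, the log2 ratio of the tumor was -1.83 (interval -1.85 to -1.81), the lowest of the 9, and 4.76% of the genes tested had a lower ratio. For spheroid over 2D monoculture it was -0.78 (interval -0.80 to -0.76), and for spheroid over tumor 1.05 (interval 1.03 to 1.07). The complex holds 2 more enzymes, encoded by genes outside the 9: Dlst for E2, the succinyl transferase, and Dld for E3, which the pyruvate dehydrogenase complex also uses. Dlst had 461 CPM in spheroids, 412 CPM in 2D co-culture, 398 CPM in 2D monoculture and 204 CPM in the tumor. Dld ran the other way, with 122 CPM in spheroids, 188 CPM in 2D co-culture, 260.3 CPM in 2D monoculture and 330.0 CPM in the tumor.

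Per kilobase, the ratio of Dld to Ogdh was 0.663 in spheroids, 0.724 with fibroblasts in 2D and 0.826 in 2D monoculture, against 3.72 in the tumor (interval 3.66 to 3.78). The ratio of Dlst to Ogdh was 2.31 in spheroids, 1.46 in 2D co-culture, 1.16 in 2D monoculture and 2.12 in the tumor. The relation of the 3 genes of the complex was therefore different in every library, and the tumor stood apart by its Dld level relative to Ogdh. These genes also differ in GC content, which was 52.5% for Ogdh, 51.3% for Dlst and 40.6% for Dld, and its part in the ratios was not tested.

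**Figure D2:**
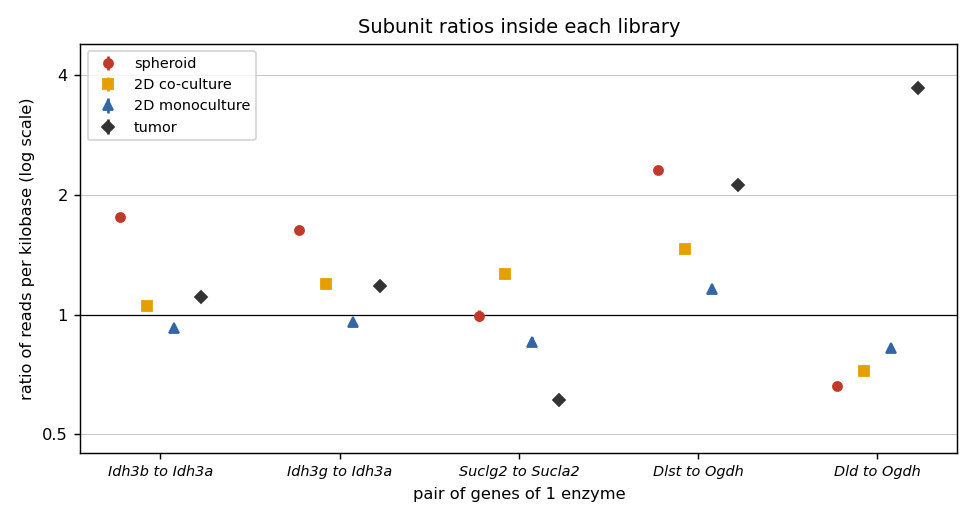
Ratio of reads per kilobase of exon between 2 genes of 1 enzyme inside each library (y axis, log scale; the line marks an even ratio); bars are 95% counting intervals. The spheroid had the highest ratios of Idh3b and Idh3g to Idh3a (1.76 and 1.63), and the tumor had a Dld to Ogdh ratio of 3.72 with the cultures under 1.

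Succinate-CoA ligase, the step of the cycle that forms GTP or ATP directly, pairs the alpha chain of Suclg1 with a beta chain, either from Suclg2 (GTP-forming) or from Sucla2 (ATP-forming). Suclg1 (chr6:73248382-73276911, plus strand) had 133 CPM in spheroids, 137 CPM in 2D co-culture, 119.7 CPM in 2D monoculture and 125 CPM in the tumor. Its 6 log2 ratios between libraries lay between -0.04 and 0.19, so it hardly differed between conditions. Suclg2 (chr6:95473009-95718800, minus strand) had 76.4 CPM in spheroids, 128 CPM in 2D co-culture, 102 CPM in 2D monoculture and 111 CPM in the tumor. The spheroid was the low library, with a log2 ratio to the 2D co-culture of -0.74 (interval -0.78 to -0.70). A processed pseudogene, Gm15163, covers 38.7% of the Suclg2 transcript at up to 98.9% identity, so reads of Suclg2 could be split or lost in counting and its level is uncertain. Of the other 8 genes none had such a copy at 95% identity or more over at least 100 bases. Sucla2, outside the 9, had 45.4 CPM in spheroids, 59.7 CPM in 2D co-culture, 70.8 CPM in 2D monoculture and 108 CPM in the tumor.

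Per kilobase, the ratio of Suclg2 to Sucla2 was 0.995 in spheroids (interval 0.964 to 1.03), 1.27 in 2D co-culture, 0.856 in 2D monoculture and 0.611 in the tumor (interval 0.599 to 0.624). Per kilobase, Suclg2 thus lay above Sucla2 in the 2D co-culture, even with it in the spheroid within counting error, and below it in the 2D monoculture and the tumor. Without division by length, the reads of Suclg2 outnumbered those of Sucla2 in every library, at ratios of 1.68, 2.14, 1.44 and 1.03 in the same order of libraries, so the side of even depends on the exon lengths, whereas the order of the libraries does not. The ratio of Suclg1 to both beta chains together was 2.15 in spheroids, 1.48 in 2D co-culture, 1.34 in 2D monoculture and 1.06 in the tumor. GC content was 50.2% for Suclg1, 44.4% for Suclg2 and 43.2% for Sucla2. Before the correction described below, the log2 ratios of spheroid to 2D monoculture were 0.15 for Suclg1 and -0.42 for Suclg2. After it they were -0.10 and 0.12, so the higher value of Suclg1 was no longer seen. The part of GC content for Sucla2 was not tested.

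Succinate dehydrogenase, which is both a cycle enzyme and complex II of the respiratory chain, is made of 4 chains whose genes are outside the 9. Sdha, for the flavin-carrying chain, had 167 CPM in spheroids and 325 CPM in 2D monoculture, a log2 ratio of -0.97. Sdhb, for the iron-sulfur chain, had 768 CPM and 422 CPM in the same libraries, and Sdhc, for a membrane anchor, 323 CPM and 168 CPM, which are log2 ratios of 0.86 and 0.94. The genes of this enzyme therefore lay on both sides of 0, and Sdhd, for the other anchor, was near it with -0.08. GC content was 48.5% for Sdha, 54.9% for Sdhb, 48.7% for Sdhc and 49.4% for Sdhd, and its part in these ratios was not tested.

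Fh1 (chr1:175600374-175625635, minus strand) encodes fumarase, which adds water to fumarate to form malate and whose loss is known to cause a human kidney cancer syndrome. It had 42.7 CPM in spheroids, 66.3 CPM in 2D co-culture, 114 CPM in 2D monoculture and 169.5 CPM in the tumor. Fh1 had the widest range of the 9 genes and was the only one of them highest in the tumor. Relative to 2D monoculture, its log2 ratio was -1.42 in the spheroid (interval -1.46 to -1.38), -0.78 in the 2D co-culture (interval -0.82 to -0.75) and 0.57 in the tumor (interval 0.54 to 0.60). For spheroid over tumor it was -1.99 (interval -2.03 to -1.95), and 16.7% of the genes tested had a lower ratio. Under every scaling tried, the ratio of spheroid to tumor stayed between -2.35 and -1.94.

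Mdh2 (chr5:135778480-135790398, plus strand) encodes the mitochondrial malate dehydrogenase, which closes the cycle by making oxaloacetate and also serves the malate-aspartate shuttle. Its level was 508 CPM in spheroids, 628 CPM in 2D co-culture, 639 CPM in 2D monoculture and 295 CPM in the tumor. Both 2D cultures were nearly level, the spheroid lay somewhat lower and the tumor lowest, at a log2 ratio to 2D monoculture of -1.12 (interval -1.13 to -1.10). With total counts or upper quartile factors in place of TMM this ratio was still below 0, up to -0.86, but within 2-fold. Per kilobase of exon, Mdh2 had the highest level of the 9 genes in all 4 libraries, from 202 CPM per kilobase in the tumor to 439 CPM per kilobase in the 2D monoculture. The lowest level per kilobase belonged to Fh1 in spheroids (16.2) and the 2D co-culture (25.1), and to Suclg2 in 2D monoculture (27.2) and the tumor (29.5). Cs was second in every culture, with 173 to 218 CPM per kilobase, and sixth in the tumor with 64.6 CPM per kilobase.

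The comparison of spheroid and 2D monoculture addressed how growth in 3D with fibroblasts relates to standard culture. No gene of the 9 was over 2-fold higher in the spheroid, where 16.4% of all genes tested were, and 2 of 9, Fh1 and Idh3a, were over 2-fold lower, where 21.6% of all genes tested were. The count of lower genes was near that background. The median log2 ratio of the 9 genes was -0.33, beside 0.10 over all genes tested, and 7 of the 9 were below 0. Of these, Idh3b was just above 0 with upper quartile factors (0.01), and Suclg2 was at 0.12 with the GC and length correction. Suclg1 went the other way with that correction, from 0.15 to -0.10. Between the 2D co-culture and the 2D monoculture, which differ at least by the presence of fibroblasts, none of the 9 genes was over 2-fold higher (8.3% of all genes tested) or over 2-fold lower (12.7%), and the median was -0.03 beside 0.01 over all genes. The largest difference there was that of Fh1. Between the spheroid and the 2D co-culture, which both held fibroblasts, again none of the 9 was over 2-fold higher (12.4% of all genes tested) or lower (13.1%). The median was -0.37 beside -0.03 over all genes, and 8 of the 9 genes were lower in the spheroid, all except Cs. Of these, Suclg1 (-0.04) and Idh3b (-0.07) lay close to 0. In none of these comparisons was the share of all genes tested below 0 counted. These comparisons share libraries and are not independent of each other. The study's methods name RPMI medium for B16F10 cells and Dulbecco's modified Eagle medium for the fibroblasts and the spheroids. They do not state the medium of the 2D co-culture. A difference in medium can therefore not be told apart from the presence of fibroblasts or growth in 3D. Reads of fibroblast genes were present in the 2D co-culture, where 9 fibroblast markers summed to 865 CPM, against 303 CPM in spheroids and 123 CPM in 2D monoculture. Of these sums Fbln1 alone made up 186 CPM, 266 CPM and 105 CPM, and the other 8 markers, a split chosen after the values were seen, summed to 679 CPM, 36.5 CPM and 17.6 CPM. The part of fibroblast RNA in these ratios was not tested.

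The comparisons with the tumor addressed how close each culture came to the cells in vivo. In the tumor relative to 2D monoculture, no gene of the 9 was over 2-fold higher (16.5% of all genes tested) and 3 of 9, Cs, Ogdh and Mdh2, were over 2-fold lower (20.3%). The median of the 9 was -0.04, beside -0.15 over all genes tested, and the 3 low genes stood apart from the other 6, whose log2 ratios lay between -0.30 and 0.57. Against the tumor, 2 of 9 (Cs and Ogdh) were over 2-fold higher in the spheroid, where 28.4% of all genes tested were, and 1 of 9 (Fh1) was over 2-fold lower, where 29.2% were. The median here was -0.06, beside 0.08 over all genes. Between 2D co-culture and tumor, 3 of 9 (Ogdh, Cs and Mdh2) were over 2-fold higher in the co-culture (20.9% of all genes tested) and 1 of 9 (Fh1) over 2-fold lower (22.5%), with a median of 0.13 beside 0.13 over all genes. The ratio of Mdh2 was 0.82 with total counts and 0.96 with upper quartile factors, within 2-fold. Scaling by total counts instead of TMM moved every log2 ratio of spheroid to tumor by -0.36 and every ratio of tumor to 2D monoculture by 0.24. Shifts of this size could not change the sign of the ratios of spheroid to tumor of Cs, Ogdh and Fh1. The ratio of Ogdh went down to 0.69 with total counts.

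**Figure D3:**
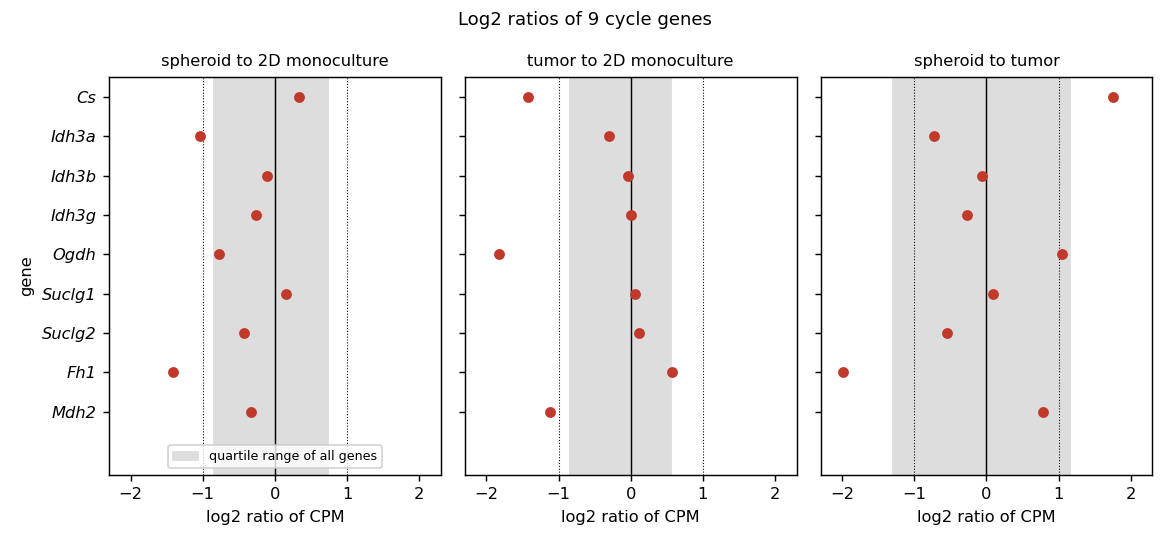
Log2 ratio of CPM (x axis) of each of the 9 genes for spheroid to 2D monoculture, tumor to 2D monoculture and spheroid to tumor; bars are 95% counting intervals, smaller than the points, the grey band spans the lower to the upper quartile of the 12728 genes tested and the dotted lines mark 2-fold. Fh1 and Idh3a lay past 2-fold on the left in the first panel, Ogdh, Cs and Mdh2 in the second, and Cs and Ogdh on the right with Fh1 on the left in the third.

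Reads of host tissue genes accompanied the tumor values. Skeletal muscle is rich in mitochondria in its oxidative fibres, and the 10 skeletal muscle markers summed to 6201 CPM in the tumor, against 5.19 to 17.2 CPM in the cultures. All 10 were over 2-fold above the 2D monoculture (16.5% of all genes tested were), in which Myh4, Myh1 and Tnni2 were at 0. In spheroids, 8 of 10 skeletal muscle, 6 of 10 myeloid and 2 of 8 endothelial markers were over 2-fold above it too. In 2D co-culture these counts were 7 of 10, 8 of 10 and 0 of 8. For muscle and myeloid markers the sums, rather than the counts, thus set the tumor apart. The 10 markers of oxidative muscle summed to 113 CPM in the tumor and to between 6.19 and 27.5 CPM in the cultures, and 7 of 10 were over 2-fold above the 2D monoculture. The 6 adipocyte markers (6 of 6 over 2-fold above the 2D monoculture) summed to 1486 CPM in the tumor and at most 2.59 CPM in the cultures, with Lep at 0 in all 3 cultures. The 10 myeloid markers (10 of 10) summed to 2056 CPM against 10.7 to 30.0 CPM, the 8 endothelial markers (7 of 8) to 315 CPM against 27.6 to 78.6 CPM, and the 9 fibroblast markers (7 of 9) to 2776 CPM. Lymphoid markers (8 of 8) summed to 9.28 CPM and keratinocyte markers (4 of 5, Krt1 at 0) to 1.95 CPM. The 8 melanocyte markers, which check the label of the cells, summed to 20122 CPM in the tumor, 16911 CPM in 2D monoculture, 15306 CPM in 2D co-culture and 11420 CPM in spheroids, with no marker at 0. None was over 2-fold above the 2D monoculture, and they did not move together. Tyrp1 had 8948 CPM in the tumor and 6168 CPM in 2D monoculture, but Sox10 237 and 834 CPM and Pmel 2208 and 2923 CPM. In spheroids Mitf had 70.3 CPM and Mlana 160 CPM, against 416 and 622 CPM in 2D monoculture, whereas Pmel had 3478 CPM. The part of host RNA in the tumor levels of the 9 genes was not tested, and in bulk RNA fewer cells of a type and less RNA per cell cannot be told apart.

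The abundant markers were, for muscle, Acta1 and Myh4, with 1360.1 and 1336 CPM in the tumor, for adipocytes Cfd and Fabp4 (689.9 and 575 CPM), for myeloid cells Lyz2 (1032 CPM) and C1qb (231 CPM), and for fibroblasts Col3a1 (1307 CPM) and Col1a2 (622 CPM). In the 2D co-culture, Col1a2 had 514 CPM and Col3a1 53.1 CPM. The markers of highest mean level were Egfl7 and Pecam1 for endothelium (43.9 and 99.4 CPM in the tumor), Cox6a2 and Fabp3 for oxidative muscle (32.5 and 11.1 CPM), Gzmb and Cd4 for lymphoid cells (2.37 and 1.74 CPM), Trp63 and Krt10 for keratinocytes (0.844 and 0.708 CPM) and Tyrp1 and Dct for melanocytes (8948 and 5127 CPM). Egfl7 and Fabp3 were not particular to the tumor, with 74.0 and 11.0 CPM in spheroids. Pecam1 had 0.147 CPM and Cox6a2 10.4 CPM in spheroids.

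GC content moved with every comparison. Over the 12466 genes tested that had a value (97.9%), Spearman's correlation across genes of the log2 ratio (1 CPM added) with GC content was 0.485 for spheroid to 2D monoculture, 0.542 for spheroid to tumor, 0.404 for spheroid to 2D co-culture, 0.212 for 2D co-culture to 2D monoculture, 0.468 for 2D co-culture to tumor and -0.385 for tumor to 2D monoculture. Genes do not count as replicates here, and all values come from the same 4 libraries. Of the 9 genes, Suclg2 (44.4%), Idh3a (46.9%) and Fh1 (47.7%) had the lowest GC content and Mdh2 the highest (55.4%), with Suclg1 at 50.2% and Cs at 50.4%. After the median ratio of genes of like GC content and length was removed, the log2 ratio of spheroid to tumor was 1.27 for Cs and -1.59 for Fh1, whereas it was 0.26 for Ogdh, 0.02 for Mdh2 and 0.35 for Suclg2, which had been -0.54. The tumor to 2D monoculture ratios became -0.92 for Cs, -1.002 for Ogdh and -0.87 for Mdh2, and the spheroid to 2D monoculture ratios -1.21 for Fh1, -0.82 for Idh3a, -0.95 for Ogdh and -0.95 for Mdh2. Cs and Fh1 were thus the genes of the 9 that were past 2-fold between spheroid and tumor with and without this correction. The part of GC content in the ratios was not tested beyond it.

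**Figure D4:**
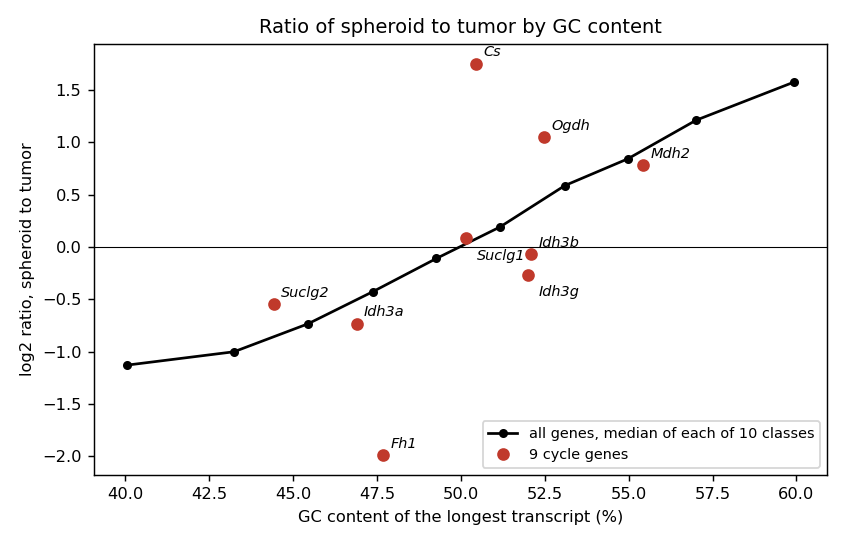
Log2 ratio of CPM of spheroid to tumor (y axis) against GC content of the longest transcript in percent (x axis); red points are the 9 genes and the black line joins the median of all genes in each of 10 classes of GC content. The line climbs from -1.13 to 1.58, Cs (1.75) lay above it, Fh1 (-1.99) below it, and Mdh2, Idh3a and Suclg1 close to it.

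A further 7 genes of the cycle (Dlst, Dld, Sucla2, Sdha, Sdhb, Sdhc and Sdhd) gave a median log2 ratio of -0.08 for spheroid against 2D monoculture, with 0 of 7 over 2-fold higher and 1 of 7, Dld, lower. Between spheroid and tumor, 2 of 7 (Dlst and Sdhc) were over 2-fold higher and 2 of 7 (Dld and Sucla2) lower, with a median of -0.51. Over all genes tested, 16.4% were higher and 21.6% lower in the former comparison, and 28.4% and 29.2% in the latter. These 7 genes and the 9 together summed to 4258 CPM in spheroids, 4436 CPM in 2D co-culture, 4535 CPM in 2D monoculture and 3546 CPM in the tumor.

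Pyruvate enters through the carrier and the pyruvate dehydrogenase complex, for which 13 genes were listed. In the spheroid relative to 2D monoculture, 2 of 13 were over 2-fold higher and 2 of 13 lower, beside the same 16.4% and 21.6% of all genes, with a median of 0.33. The carrier gene Mpc1 had 55.7 CPM in spheroids and 23.7 CPM in 2D monoculture, and Pdk2, a kinase that switches the complex off, 20.1 and 8.89 CPM, while Pdhx, which anchors E3 in the complex, had 24.9 and 55.5 CPM. Dlat, for E2 of this complex, had 305 CPM in spheroids, 316 CPM in 2D co-culture, 272 CPM in 2D monoculture and 101 CPM in the tumor, so the tumor was its lowest library, as it was for Cs, Ogdh and Dlst. Pdha1, for its E1 alpha chain, had 77.2 CPM in spheroids and 177 CPM in the tumor, and Pdk4, another of the kinases, 0.14 and 55.5 CPM, the latter a gene that muscle expresses strongly.

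Among 23 genes for side reactions and carriers, 4 were over 2-fold higher and 4 lower in the spheroid than in the 2D monoculture, with a median of -0.08, and 9 were higher and 3 lower in the spheroid than in the tumor. Of all genes tested, 16.4% and 21.6% were higher and lower in the former comparison, close to the list, and 28.4% and 29.2% in the latter. Pck2, which draws oxaloacetate off to phosphoenolpyruvate in mitochondria, had 344 CPM in spheroids, 174 CPM in 2D co-culture, 70.3 CPM in 2D monoculture and 30.3 CPM in the tumor. Gpt2 (log2 ratio to 2D monoculture 1.36), D2hgdh (1.05) and the citrate carrier Slc25a1 (1.01) were the others higher in the spheroid, and Me2 (-1.42), Slc25a12 (-1.39), Acly (-1.30) and Mdh1 (-1.001) the genes lower. Mdh1, the cytosolic partner of Mdh2 in the malate-aspartate shuttle, had 210.1 CPM in spheroids, 272 CPM in 2D co-culture, 420.5 CPM in 2D monoculture and 484 CPM in the tumor, so the tumor was its highest library and the lowest of Mdh2. The transaminase genes of the shuttle were low in the tumor like Mdh2: Got1 had 165 CPM there and 539 CPM in spheroids, and Got2 172 and 560.3 CPM. Against the tumor, the log2 ratio of the spheroid was 1.31 for Me1 and 1.16 for Slc25a11, and -2.31 for the cytosolic Idh1.

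The 69 subunits of oxidative phosphorylation, which take up the electrons of the cycle, gave a median log2 ratio of 0.70 for spheroid against 2D monoculture, with 18 of 69 over 2-fold higher and 1 of 69 lower, beside 16.4% and 21.6% of all genes tested. The 20 glycolysis genes gave a median of 0.56, with 4 of 20 higher, near that share, and 2 of 20 lower. The 9 cycle genes, with -0.33, lay on the other side of 0 in the same libraries, and this difference between lists was not tested. Ratios in this comparison moved with GC content (Spearman's correlation 0.485). With the GC and length correction the median of the 9 cycle genes was -0.78, but the other lists were not corrected. The part of GC content in this difference was therefore not tested. Atp5b, for the beta chain of ATP synthase, had 2485 CPM in spheroids and 2253 CPM in 2D monoculture, Atp5a1, for the alpha chain, 1052 and 1352 CPM, Aldoa, for aldolase, 11688 and 4581 CPM, and Pkm, for pyruvate kinase, 4393 and 5405 CPM. Between spheroid and tumor the medians were 0.51 for oxidative phosphorylation, 0.52 for glycolysis and -0.06 for the 9 cycle genes. Some listed genes, such as Gapdh and Eno1, have many near-identical copies and their counts are uncertain. Ndufs5 had no read in any culture, entered with each count raised to the floor of 3 reads, and its ratio carries no information.

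**Figure D5:**
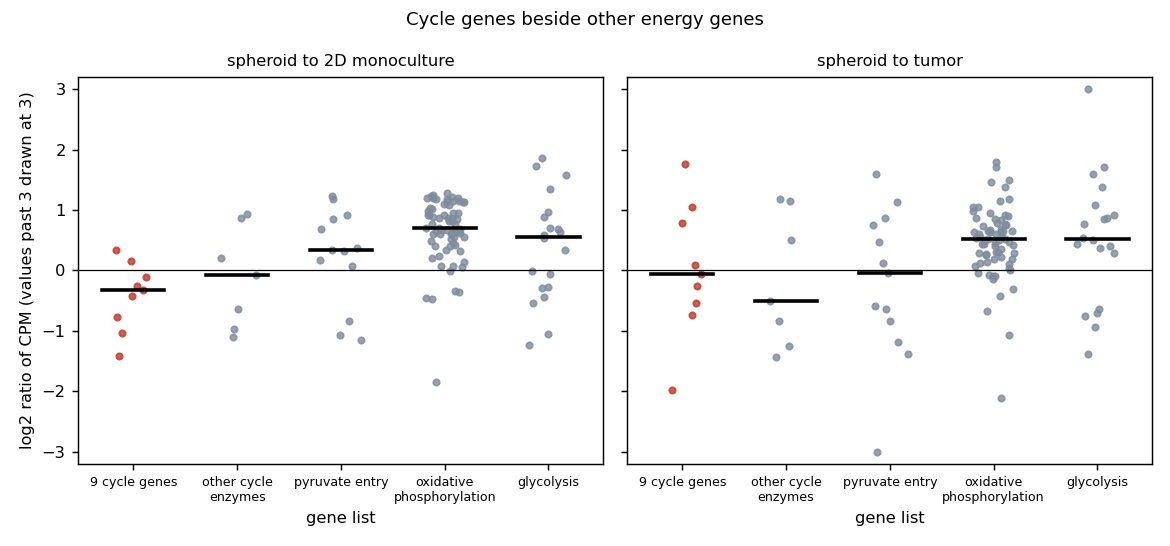
Log2 ratio of CPM (y axis) of single genes in 5 lists for spheroid to 2D monoculture (left) and spheroid to tumor (right); points are genes, bars are list medians, and values past 3 are drawn at 3. In the left panel the median of the 9 cycle genes was -0.33, that of oxidative phosphorylation 0.70 and that of glycolysis 0.56. Values are without correction for GC content or length.

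Of 12 regulators of mitochondrial biogenesis, none was over 2-fold higher and 3 were lower in the spheroid than in the 2D monoculture, with a median of 0.00. The shares of all genes tested were 16.4% higher and 21.6% lower, and the count of lower regulators was near the latter. Ppargc1a, a coactivator that drives mitochondrial genes in melanoma and muscle, had 81.6 CPM in spheroids, 69.02 CPM in 2D co-culture, 221 CPM in 2D monoculture and 156 CPM in the tumor. Esrra, a nuclear receptor it works with, had 181 CPM in spheroids, 90.2 CPM in 2D co-culture, 132 CPM in 2D monoculture and 41.9 CPM in the tumor. Of 16 genes of mitochondrial import, membrane and chaperones, none was over 2-fold higher and 2 were lower in the spheroid, with a median of 0.20. The same shares of all genes tested, 16.4% and 21.6%, stand beside these counts. The chaperonin genes Hspd1 and Hspe1 had 784 and 1136 CPM in spheroids and 1423 and 615 CPM in 2D monoculture, so the partners of this chaperone lay on opposite sides of even.

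The mean centred profile of the 9 genes over the 4 libraries was compared with that of 9563 other genes, by the distance between the log2 values. Among the genes nearest to it were Dnajc5 (distance 0.036), Rpusd4 (0.059) and Uqcc1 (0.076). With 4 libraries many genes come near such a profile. None of the 9 genes itself was as near to their mean: Idh3g was nearest with 0.31 and Fh1 farthest with 1.54.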

How the data were processed

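The authors deposited 1 table of raw read counts per gene symbol for 4 libraries, made from 2 x 150 base paired-end reads of poly(A)-selected RNA. Per the submitters' processing notes, Trimmomatic, STAR and featureCounts were used with genome build mm10. Their versions, the strand setting and the annotation release are not stated in the sources used here. Total counts per library were 150028663 (spheroid), 118896900 (2D co-culture), 144817414 (2D monoculture) and 139592426 (tumor).

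Counts were scaled to CPM with TMM factors of edgeR 4.0.16 (R 4.3.3). Log2 ratios had nothing added. Intervals (95%) were exact Clopper-Pearson for levels and exact binomial for ratios. With 1 library per condition no test was made, and genes past 2-fold are counted beside all genes whose mean reached 1 CPM. Alternatives were DESeq2 1.42.0 size factors, total counts, upper quartile factors, TMM of the libraries compared or of the cultures, 1 CPM added, other filters, no length division, and removal of the median ratio of 10 classes of GC content by 10 of length. The ratio script was tested on simulated counts.

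Coordinates, exon lengths and GC content came from GENCODE vM21 (GRCm38, the build of mm10), and near-identical copies from BLAST 2.17.0. Other steps ran in Python 3.11.15 with scipy 1.17.1, pandas 2.3.3 and numpy 2.4.6. The 9 genes and all lists were chosen with earlier results of these data known. All 9 genes were named in every library, with the genes of the cycle, pyruvate entry and side reaction lists past 2-fold between spheroid and 2D monoculture or tumor at a mean of at least 10 CPM, the 2 genes of highest mean CPM of each other list, and the 5 nearest profiles. Other genes of the cycle were added to complete enzymes. A few genes that this rule takes in are not reported here.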

Additional observations from a re-analysis of the deposited data

How the results depend on the processing

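No paired analysis was possible because there is a single library per condition, and leaving one out would remove a condition. Alternative values were set against those reported at a width of 1.5-fold. This is wider than every median of the 9 genes, so a median could change sign and still count as within it. TMM of the cultures gave exactly the reported values in every comparison of cultures. TMM of the libraries compared did so in each comparison with the 2D co-culture. Of 117 alternative values of the medians and the counts past 2-fold, 108 stayed within 1.5-fold of the value reported. Of the 9 that did not, genes over 2-fold lower in the spheroid than in the 2D monoculture were 1 in place of 2 with DESeq2 size factors, with upper quartile factors and with the GC and length correction, in each case without Idh3a. Between spheroid and tumor, genes over 2-fold higher in the spheroid were 1 in place of 2 with total counts, upper quartile factors and the GC and length correction, and genes lower were 2 in place of 1 with total counts. With the GC and length correction, genes over 2-fold lower in the tumor than in the 2D monoculture were 1 in place of 3, and genes over 2-fold higher in the 2D co-culture than in the tumor 1 in place of 3. The median of the 9 genes ranged from -0.78 to -0.21 for spheroid to 2D monoculture, from -0.45 to -0.36 for spheroid to 2D co-culture, from -0.21 to 0.09 for 2D co-culture to 2D monoculture, from -0.39 to 0.21 for tumor to 2D monoculture, from -0.42 to 0.02 for spheroid to tumor and from -0.15 to 0.15 for 2D co-culture to tumor. Of 351 alternative values of single genes, 29 had the other sign and 15 lay on the other side of 2-fold, but none of the 12 ratios past 2-fold changed sign. The shifts by scaling were too small to change those 12 signs, so only the GC and length correction could have done so. Depth left a counting error of at most 2.58% of a level, and the spread between replicates is unknown.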
